A study of Mus musculus with 126 samples.

Results

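The cells described here are epithelial cells of the Sox9Y440X/+ endolymphatic sac that carried RNA of one of a pair of retinaldehyde dehydrogenase genes, Aldh1a1 or Aldh1a3, and little or none of the other. In the series, 126 cells were taken from mouse endolymphatic sacs at E14.5, of which 93 were labelled Sox9Y440X/+ (heterozygous for a nonsense allele of the transcription factor gene Sox9) and 33 wild type. RNA was copied and amplified cell by cell with the Smart-seq2 protocol, and each gene's level is given in FPKM (fragments per kilobase of transcript, scaled to a fixed number of mapped fragments), which corrects for gene length and for each cell's total. From the mutant cells, 4 titles were set aside by the rule, and a cell was kept if Epcam, the epithelial adhesion gene, was at 1 FPKM or more and Foxi1, the regulator of mitochondria-rich cells, was under 10 FPKM. In each of the 68 cells kept, log2(Aldh1a3 + 1) was subtracted from log2(Aldh1a1 + 1). The 31 cells with a difference of 2 or more form the Aldh1a1 side, and the 32 cells with a difference of -2 or less form the Aldh1a3 side. These 63 cells were chosen by their FPKM of Aldh1a1, Aldh1a3, Epcam and Foxi1, and 5 kept cells lay between the sides.

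The labels name no animal or litter and no promoter-driven transgene, so all mutant cells count as 1 sample, and cells are not replicates. No p-value was computed, and every spread given is a spread over cells. Depth in reads is unknown from FPKM. The number of genes listed above 0 stands in for it, and it ran from 2472 to 5984 with a median of 4615 on the Aldh1a1 side and from 2035 to 7074 with a median of 4264.5 on the Aldh1a3 side. A typical cell of either side had 6 of the 7 epithelial markers. Markers of mitochondria-rich cells summed to at most 0.989 FPKM on the Aldh1a1 side and 1.24 FPKM on the Aldh1a3 side, with Slc26a4 at 0 in every member. Summed mesenchymal markers had medians of 3.05 and 0 FPKM and highest values of 94.7 and 37.5 FPKM on the Aldh1a1 and Aldh1a3 sides. The red cell and neuronal markers were at 0 in every cell of the Aldh1a3 side, but reached 40.5 and 20.2 FPKM on the Aldh1a1 side. Summed glial and neural crest markers had medians of 5.11 and 18.996 FPKM on the 2 sides and highest values of 82.7 and 309.7 FPKM. Melanocyte markers summed to at most 131.8 and 103.03 FPKM, and endothelial markers to at most 34.3 and 64.7 FPKM. Xist was detected, meaning 1 FPKM or more, in 29 of 31 and 30 of 32 cells, and no Y-linked gene was detected in any member.

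The endolymphatic sac is the blind end of the inner ear's fluid system, and its epithelium takes part in moving ions and water out of the endolymph. Aldh1a1 and Aldh1a3 encode cytosolic enzymes that oxidise retinaldehyde to retinoic acid, a ligand of nuclear receptors. Both are used in the developing ear and eye, where they often mark different parts of an epithelium.

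The pair of enzymes chose the cells, so their levels are a description only. On the Aldh1a1 side, Aldh1a1 had a lowest value of 41.4, a median of 368 and a highest value of 1841 FPKM, and Aldh1a3 was at 0 in 29 of 31 cells. On the Aldh1a3 side, Aldh1a3 ran from 12.96 through a median of 536 to 2346 FPKM, and Aldh1a1 was at 0 in 31 of 32 cells. The threshold cut through a gap: the members nearest to it had differences of 3.79 (199.9 FPKM of Aldh1a1 and 13.5 of Aldh1a3) and -2.88 (64.5 and 481 FPKM). Outside it, 1 cell had both genes, with 158.6 and 77.8 FPKM and a difference of 1.02, and the other 4 had neither. Of the 68 kept cells, 45.6% were on the Aldh1a1 side (exact Clopper-Pearson 95% interval 33.5 to 58.1) and 47.1% on the Aldh1a3 side (34.8 to 59.6). These intervals, like the others here, cover counting error only.

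**Figure D1:**
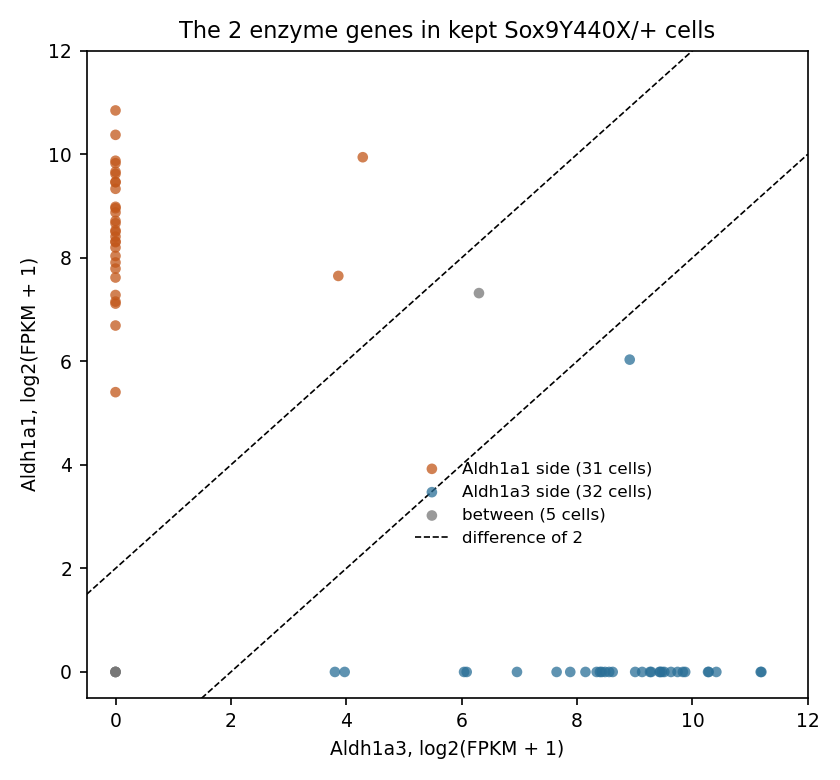
Aldh1a1 against Aldh1a3 in log2(FPKM + 1) for the 68 kept Sox9Y440X/+ cells, 1 point per cell, with dashed lines at a difference of 2 either way. The 31 cells of the Aldh1a1 side lie along the vertical axis and the 32 cells of the Aldh1a3 side along the horizontal one; the 4 cells with neither gene overlap at the origin.

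The question put to these cells was which other genes went with each enzyme. A gene was compared if it was detected in at least 30% of the cells of either side, and 5536 genes were. The value given for a gene is its relative difference: mean log2(FPKM + 1) on the Aldh1a1 side minus that on the Aldh1a3 side, less the median of this difference over all compared genes, which was 0.21. A gene is called higher on a side when its relative difference is 1 or more in that direction. By that rule 705 genes, or 12.7%, were higher on the Aldh1a1 side and 599, or 10.8%, on the Aldh1a3 side, so 23.6% of compared genes were called one way or the other.

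Among the 15 genes with the highest relative differences, several were detected in every cell of the Aldh1a1 side. Spp1, which encodes the secreted phosphoprotein osteopontin, ran from 41.4 through a median of 589 to 2424 FPKM on the Aldh1a1 side and from 0 through 39.997 to 816.5 FPKM on the Aldh1a3 side. It was detected in 31 of 31 and 18 of 32 cells, with a relative difference of 4.77. Perp, a tetraspan protein of desmosomes, ran from 73.6 through 300.2 to 642.7 FPKM against 0 through 39.2 to 234.8 FPKM. Its mean log2 level was 8.13 ± 0.77 (SD, n = 31 cells) against 3.45 ± 3.19 (SD, n = 32 cells), a relative difference of 4.47. The sides overlapped for both genes, but every cell of the Aldh1a1 side had them, whereas many cells of the other side had none.

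Slit2, a secreted guidance ligand, ran from 54.1 through 265 to 780 FPKM on the Aldh1a1 side and from 0 through 5.61 to 424.6 FPKM on the other, a relative difference of 4.31. Fxyd3, a small regulator of the sodium pump, ran from 26.5 through 227 to 613.9 FPKM against 0 through 0 to 215.6 FPKM, a relative difference of 4.77. Pcolce, which enhances procollagen processing, had medians of 586 and 21.4 FPKM and a relative difference of 4.61. These genes, too, were detected in all 31 cells of the Aldh1a1 side, against 19, 14 and 21 of the 32 cells of the other.

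Some genes of the Aldh1a1 side were present in most but not all of its cells. Rcan2, a regulator of the phosphatase calcineurin, had the highest relative difference, 4.93, with medians of 197.5 and 0 FPKM and detection in 27 of 31 and 6 of 32 cells. Klk10 and Klk11, kallikrein-related secreted peptidases, lie next to each other on chromosome 7 (mm10, 43781035 to 43785410 and 43774604 to 43779263). Klk10 was detected in 27 of 31 and 5 of 32 cells, and Klk11 in 22 of 31 and 2 of 32, with relative differences of 4.88 and 3.89. Mmp23, a membrane-tethered metalloprotease, had medians of 418 and 4.23 FPKM. The others among the 15 highest were H2-D1 (4.79, described below), Tspan7, a tetraspanin, at 4.10, Myl7, a myosin light chain known from the heart's atria, at 4.08, Anxa1, a phospholipid-binding annexin, at 4.06, Aga, a lysosomal amidase, at 3.98, and Lrrtm1, a leucine-rich transmembrane protein, at 3.78.

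The lowest relative differences were those of Id genes, whose small proteins block basic helix-loop-helix transcription factors and are known targets of BMP signalling. Id3 (chromosome 4, 136143497 to 136145755) had a median of 0 FPKM on the Aldh1a1 side, with a range from 0 to 203.7, and a median of 245.8 FPKM on the Aldh1a3 side, with a range from 0 to 2512. It was detected in 8 of 31 and 26 of 32 cells, and its relative difference of -5.40 was the lowest of all named genes. Id1 (chromosome 2, 152736251 to 152737410) had medians of 0 and 310 FPKM, detection in 5 of 31 and 25 of 32 cells and a relative difference of -5.38, although its highest cell, at 1615 FPKM, lay on the Aldh1a1 side. Id2 was present on both sides, in 24 of 31 and 30 of 32 cells, with medians of 45.8 and 365 FPKM and a relative difference of -3.06. Id1 and Id3 thus differed in the share of cells in which they were detected, and Id2 mainly in how much. Id3 differed in amount too: its highest value on the Aldh1a1 side, 203.7 FPKM, lay below the Aldh1a3-side median of 245.8 FPKM.

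Growth and cell-cycle regulators were also among the genes of the Aldh1a3 side. Igfbp2, a secreted binding protein of insulin-like growth factors, had medians of 0 and 228 FPKM and was detected in 6 of 31 and 21 of 32 cells, a relative difference of -4.54. Ccnd2, a cyclin of the G1 phase, was detected in 2 of 31 and 21 of 32 cells, with medians of 0 and 67.1 FPKM and a relative difference of -4.16. Cdkn1c, an imprinted inhibitor of cyclin-dependent kinases, went the same way, at -3.37, with detection in 10 of 31 and 24 of 32 cells. A cyclin and a kinase inhibitor were thus both higher on the same side.

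Fam132a, which encodes the secreted protein adipolin, separated the sides best among these genes: it was detected in 10 of 31 and 30 of 32 cells, with medians of 0 and 160 FPKM and a highest value of 101.3 on the Aldh1a1 side. Over all pairs of 1 cell from each side, ties shared equally, the Aldh1a1 cell was the higher in 7.76% of pairs. The others of the 15 lowest were Cldn8, a claudin, at -3.73, Nfil3, a bZIP transcription factor, at -3.50, Lypd2, a Ly6-family surface protein, at -3.50, Ddah2, an enzyme of methylarginine breakdown, at -3.30, Tle2, a Groucho-family corepressor, at -3.29, Nap1l1, a nucleosome assembly protein, at -3.25, Cpxm2, a carboxypeptidase-like secreted protein, at -3.21, and Sfrp2, a secreted WNT antagonist, at -3.05. Among cells with 3000 to 5000 listed genes (19 and 24 cells), the relative difference of Cpxm2 was -1.998.

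**Figure D2:**
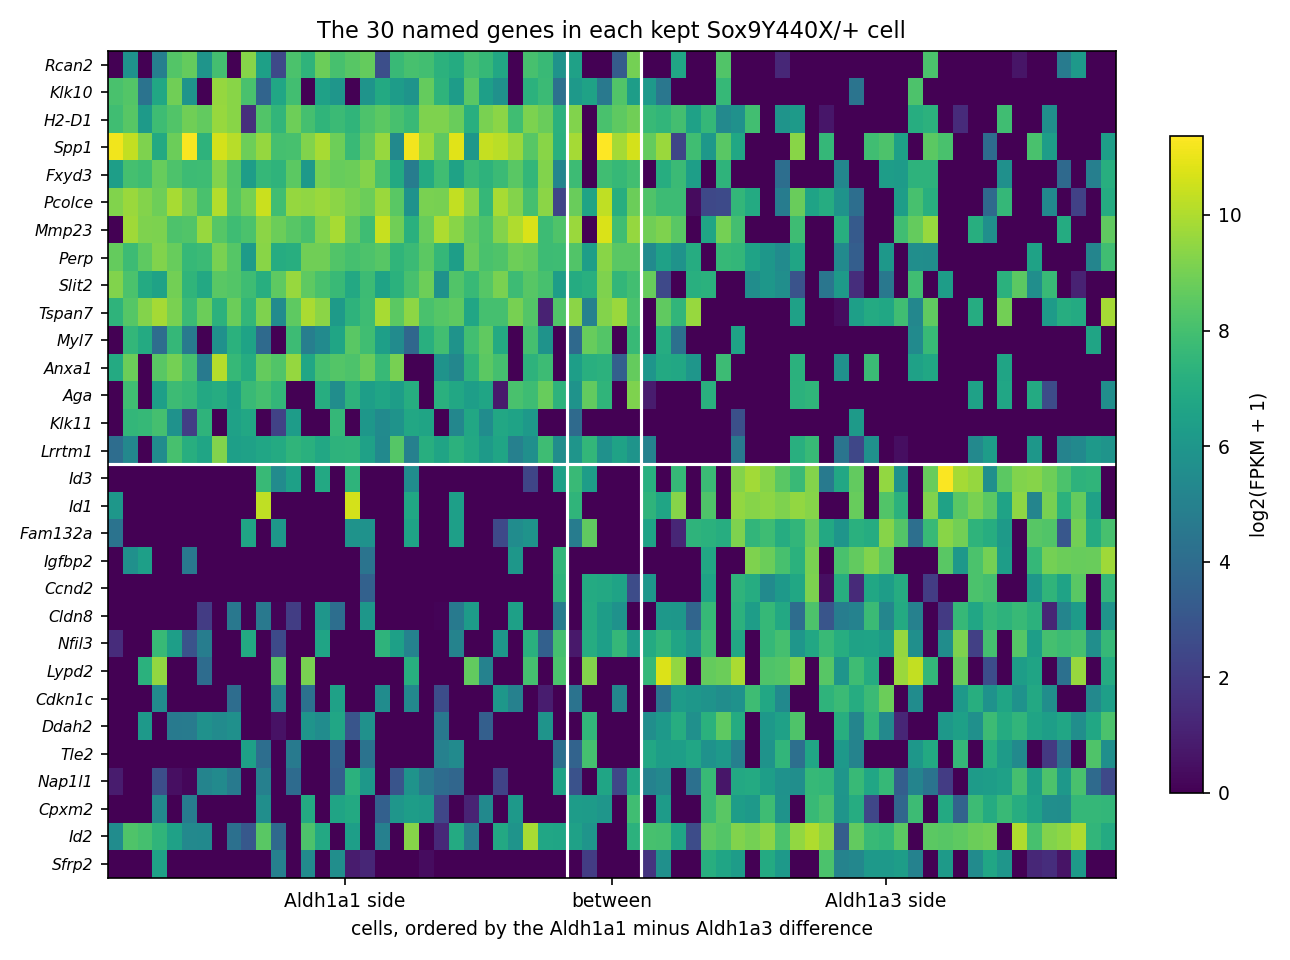
Levels in log2(FPKM + 1) of the 15 highest genes (above the white line) and the 15 lowest (below it) in each of the 68 kept cells, ordered by the Aldh1a1 minus Aldh1a3 difference, with white lines bounding the 5 cells between the sides. Single cells of each side carry genes of the other: Id3 was detected in 8 of the 31 cells on the left and Spp1 in 18 of the 32 on the right.

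A few genes were detected on a single side. Among compared genes detected in at least 40% of the cells of one side and in none of the other, 5 were found; they were chosen after their values were seen. Sp8, a zinc-finger transcription factor, was detected in 23 of 31 cells of the Aldh1a1 side, with a median of 16.7 and a highest value of 63.6 FPKM. Pcsk2, a prohormone convertase, was detected in 19 of 31, with a highest value of 208 FPKM; its locus overlaps the antisense gene Pcsk2os1, and the strand of counting is not given in the sources used here. Neither was detected in any of the 32 cells of the Aldh1a3 side, which allows a share of up to 9.38%. This limit, like the one below, is 3 divided by the number of cells and not a Clopper-Pearson bound. In the other direction Bmper, a secreted modulator of BMP signalling, was detected in 0 of 31 and 14 of 32 cells, and Calml4, a calmodulin-like gene, in 0 of 31 and 13 of 32; 0 of 31 allows up to 9.68%. The remaining one was Gm3336, an unnamed gene model, in 13 of 31 and 0 of 32.

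The gene lists place these genes in pathways. All lists are given by their counts and by the median relative difference of their compared members, beside a median of 0 and called shares of 12.7% and 10.8% over all compared genes.

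For retinoic acid handling, 9 of 22 list genes were compared, and 0 were called higher on the Aldh1a1 side and 1 on the Aldh1a3 side, with a median of -0.44. The 1 was Stra6, the membrane receptor that takes up retinol, detected in 9 of 31 and 14 of 32 cells with a relative difference of -1.36, which was -0.51 among cells with 3000 to 5000 listed genes. Rdh10, which makes the retinaldehyde that both enzymes use, was detected in 27 of 31 and 29 of 32 cells, with medians of 53.96 and 85.3 FPKM and a relative difference of -0.96. Dhrs3, which turns retinaldehyde back to retinol, had a median of 154 FPKM on each side and a relative difference of -0.76. Cyp26b1, which breaks retinoic acid down, was detected in 1 of 31 and 3 of 32 cells, and Crabp2, a retinoic acid carrier, in 1 of 31 and 6 of 32. Aldh1a2, the other enzyme of the family, was listed at 0 in every member. All 9 compared genes of the pathway thus had relative differences below 0, from -1.36 to -0.13, but only Stra6 was called. That is 11.1% of the 9, near the 10.8% over all compared genes.

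Of 7 compared BMP and TGF-beta response genes, 3 were higher on the Aldh1a3 side, the Id genes above, 1 was higher on the Aldh1a1 side and 3 were not called, Id4 (-0.34) among them, with a median of -0.59. That 1 was the ligand gene Bmp7 (relative difference 3.20), detected in 28 of 31 and 13 of 32 cells with medians of 56.9 and 0 FPKM. Bmp4 was listed at 0 in every member. The ligand gene and the Id genes were thus higher on opposite sides.

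Of 13 WNT target and feedback genes, 6 were compared, Nkd1 and Lef1 through the Aldh1a3 side alone. Of the 6, 5 were higher on the Aldh1a3 side and 0 on the Aldh1a1 side, with a median of -2.09. Without the filter on low values the median was -0.32. Nkd1, a feedback inhibitor, was detected in 5 of 31 and 18 of 32 cells (relative difference -2.64), Lef1, a transcription factor of the pathway, in 8 of 31 and 19 of 32 (-2.52), and Notum, a secreted enzyme that inactivates WNT ligands, in 12 of 31 and 22 of 32 (-2.41). Ccnd1, a cyclin gene, was detected in 11 of 31 and 21 of 32 (-1.78). No compared ligand gene was called. Wnt6 had medians of 35.5 and 57.3 FPKM and a relative difference of -0.92. Its neighbour Wnt10a had medians of 37.3 and 10.8 FPKM and a relative difference of 0.68, and Wnt2b was at 0.47. Wnt7b (-1.14) and Wnt9a (-1.24) were detected in too few cells to be compared. Of the 9 compared ligands, receptors and inhibitors, 2 were higher on the Aldh1a3 side, Sfrp2 and the receptor gene Ror1 (-1.86).

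Of 30 otic patterning factors, 9 were compared. Of the 9, 4 were higher on the Aldh1a3 side and 0 on the other, with a median of -0.999. They were the homeobox genes Msx1 (-1.85), Dlx3 (-1.80, in 0 of 31 and 10 of 32 cells) and Emx2 (-1.54), and the T-box gene Tbx2 (-1.18). Dlx3 was compared through its detection on the Aldh1a3 side alone. Lmx1a, a LIM homeobox gene needed for the sac, was just under the call at -0.999. Dlx5 had medians of 83.2 and 104 FPKM and a relative difference of -0.30. Gata3 was detected in 0 of 31 and 8 of 32 cells, too few to be compared. Sox9 itself was detected in 29 of 31 and 30 of 32 cells, with medians of 8.47 and 13.9 FPKM and a relative difference of -0.55, and Sox10 in 5 of 31 and 2 of 32. Both Sox9 alleles can give RNA, so its level does not check the genotype label.

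Of 14 compared claudin and tight-junction genes, 5 (35.7%) were higher on the Aldh1a1 side and 2 (14.3%) on the Aldh1a3 side, with a median of 0.58. Over all compared genes these shares were 12.7% and 10.8%. Cldn4, an epithelial claudin, ran from 36.6 through 202 to 679.9 FPKM on the Aldh1a1 side against 0 through 88.3 to 302.9 FPKM, a relative difference of 1.83. Cldn6 and Cldn8 were the 2 of the other side. Cldn6 had medians of 117 and 269 FPKM with detection in 24 of 31 and 31 of 32 cells (-2.17), and Cldn8 medians of 0 and 64.9 FPKM with detection in 11 of 31 and 28 of 32 (-3.73). F11r, a junctional adhesion molecule, was at 1.73, and at 0.74 among cells with 3000 to 5000 listed genes. Cldn10 was detected in 0 of 31 and 1 of 32 cells. Of 18 compared cadherin, keratin and adhesion genes, 2 (11.1%) were higher on each side, near the shares over all compared genes. On the Aldh1a1 side they were Krt19, a simple-epithelium keratin, at 2.31 and Jup, plakoglobin, at 1.76. On the other they were Cdh6 at -1.84 and Cdh3 at -1.16.

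For transport, 3 of 4 compared sodium pump and FXYD genes were higher on the Aldh1a1 side, among them Fxyd3 and the pump subunit gene Atp1b3 (1.21). Atp1b3 was at 0.95 among cells with 3000 to 5000 listed genes. None of 7 compared ion and water transport genes was called, and Car2, a carbonic anhydrase, was detected in 18 of 31 and 15 of 32 cells with a relative difference of -0.03.

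Secreted proteins differed both ways. Of 11 compared, 6 were higher on the Aldh1a1 side and 4 on the Aldh1a3 side. Agt, angiotensinogen, was detected in 19 of 31 and 5 of 32 cells (2.59), and Igfbp5, like Igfbp2 a binding protein of insulin-like growth factors, in 6 of 31 and 27 of 32 (-2.81). Oc90, the main protein of otoconia, was detected in 17 of 31 and 8 of 32 cells, but its highest value was 525.8 FPKM on the Aldh1a1 side and 5816 FPKM on the Aldh1a3 side. Its relative difference of 1.31 was therefore -1.84 when log2 was taken of the mean FPKM, and it was -0.16 among cells with title letters E to H.

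**Figure D3:**
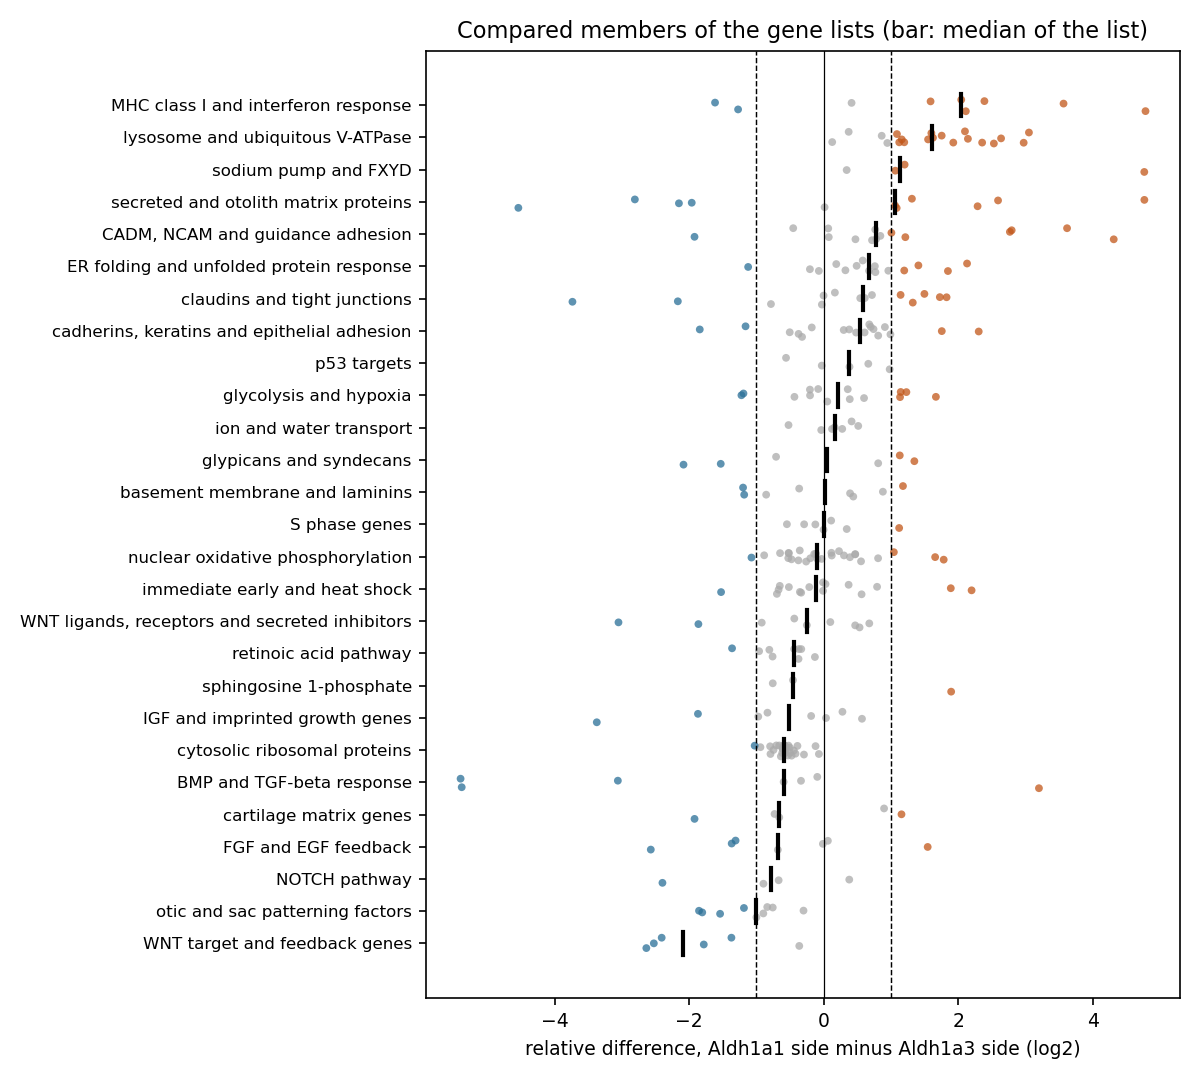
Relative differences (log2, Aldh1a1 side minus Aldh1a3 side) of the compared members of each gene list, 1 point per gene, with a black bar at each list's median and dashed lines at 1 and -1. The lysosome list has 16 of 20 members to the right of 1 and the WNT target list 5 of 6 to the left of -1.

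Of 20 compared genes of lysosomal proteins and the ubiquitous V-ATPase, the proton pump that acidifies lysosomes, 16 were higher on the Aldh1a1 side and 0 on the other, with a median of 1.61. Ctsa, a lysosomal carboxypeptidase, ran from 72.1 through 383 to 888.4 FPKM against 0 through 135 to 655.2 FPKM, a relative difference of 2.53; its locus overlaps Neurl2 and Pltp, so its reads may be shared with them. Hexa, a lysosomal hydrolase gene, was at 3.05, and Lgmn, the protease legumain, at 2.98. Hexa was detected in 30 of 31 and 19 of 32 cells, and Lgmn in 26 of 31 and 12 of 32.

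Of 9 compared MHC class I and interferon-response genes, 6 were higher on the Aldh1a1 side and 2 on the other, with a median of 2.05. H2-D1 ran from 1.92 through 308 to 774.8 FPKM on the Aldh1a1 side and from 0 through 0.31 to 253.7 FPKM on the Aldh1a3 side. H2-K1 was detected in 23 of 31 and 6 of 32 cells, with medians of 89.1 and 0 FPKM and a relative difference of 3.57. Both encode classical class I heavy chains and are close relatives, and how the counting split reads between them is not given in the sources used here, so their separate values are uncertain. H2-T23, a nonclassical class I gene, was at 2.39 and Bst2, the antiviral protein tetherin, at 2.12. The 2 genes higher on the Aldh1a3 side were Ifitm3 (-1.61) and Irf1 (-1.27). Macrophage and immune markers summed to at most 9.37 FPKM on the Aldh1a1 side and 1.08 on the other, with 6 of the 7 at 0 in every cell of each side, Ptprc among them.

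The metallothionein genes Mt1 and Mt2, small metal-binding proteins, are on none of the lists and were picked after their values were seen. Mt1 ran from 9.91 through 1087 to 4022 FPKM on the Aldh1a1 side and from 0 through 106 to 1146 FPKM on the other, a relative difference of 3.56. Mt2 was detected in 26 of 31 and 13 of 32 cells, with medians of 110 and 0 FPKM and a relative difference of 3.47. Both were high on the same side, and they lie side by side on chromosome 8 (94179082 to 94180327 and 94172664 to 94173568).

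For the lysosomal and class I lists and the metallothionein pair, which all had more genes called higher on the Aldh1a1 side than on the other, the promoters of the genes that hold a motif are shown in part. The 250 bases before each RefSeq start (GRCm38.p6) were searched on both strands for 12 motifs, chosen after the expression values were seen, and results are given for each. GGGGATTCC, the start of the site of NF-kappaB in class I promoters, was found in H2-K1 and H2-D1, 2 of 9 genes of that list, and in 0.255% of 27025 genes. With 1 more C after it, it was found in the same 2 genes and in 0.0999% of all, and GGGAATTCC with 1 more C was found in 0 of 9 and 0.0407%. Promoters were given for 16 of the 20 lysosomal genes. CACGTG, the E-box held in the element of lysosomal genes, was found in 6 of them and in 6.86% of all genes. TCACGTG was found in 5 and 3.58%, TCACGTGA in 3 and 0.907%, and TCACGTGA with a G before and a C after it in 0 and 0.27%; these 4 motifs contain each other. Of the metal-response cores, TGCACNC was found in both Mt1 and Mt2 and in 11.8% of all genes, and TGCGCNC in Mt2 alone and in 13.99%. Among genes of the Aldh1a3 side, neither CTTTGAT nor CTTTGTT, forms of the TCF site, was found in the 3 WNT target genes with a promoter given (3.72% and 5.77% of all genes), and GGCGCC, a SMAD-type motif, was found in Id2 but not Id3, and in 10.8% of all. A match is a run of letters and not a site of binding, and no data here bear on binding.

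Each stretch below is 30 bases long, read 5′ to 3′ on the gene's own strand, with the match to GGGGATTCC (class I), TCACGTG (lysosomal genes) or TGCACNC (metallothioneins), or to its reverse complement, in capitals. The 2 matches in Lamp1 lie apart, and those in Ctsa, Ctsd and Atp6v1a overlap, since TCACGTGA reads the same on both strands.
H2-K1 (chr17:34000439-34000468, minus strand): gcccagggctGGGGATTCCccatctccaca
H2-D1 (chr17:35262913-35262942, plus strand): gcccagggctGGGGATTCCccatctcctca
Ctsa (chr2:164833743-164833772, plus strand): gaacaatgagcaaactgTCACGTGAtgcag
Ctsd (chr7:142387907-142387936, minus strand): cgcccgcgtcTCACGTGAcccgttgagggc
Lamp1 (chr8:13159131-13159160, plus strand): ggCACGTGAccacaTCACGTGcggaacgga
Lgmn (chr12:102439124-102439153, minus strand): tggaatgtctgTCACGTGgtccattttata
Atp6v1a (chr16:44139372-44139401, minus strand): tttttttaaaTCACGTGAtaggcttaacgt
Mt1 (chr8:94179055-94179084, plus strand): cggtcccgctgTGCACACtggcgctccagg
Mt2 (chr8:94172557-94172586, plus strand): ggggggagggcGTGTGCAggctctgtccca

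The class I stretches of H2-K1 and H2-D1 differ at 1 of 30 bases. Of the 5 lysosomal genes shown, Lgmn (2.98), Ctsa (2.53), Atp6v1a (1.20) and Lamp1 (1.09) were called and Ctsd (0.95) was not.

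The remaining lists differed less or both ways. Of 15 compared adhesion and guidance genes, 6 were higher on the Aldh1a1 side and 1 on the other. Besides Slit2 they included Cadm2 (3.62) and Ncam2 (2.80), cell adhesion molecules, and Tmeff2 (2.77), a transmembrane protein with follistatin-like modules. Of 15 compared genes of protein folding in the endoplasmic reticulum, 4 were higher on the Aldh1a1 side, led by the cochaperone Dnajb9 (2.13), and 1 on the other. Of 16 immediate early and heat-shock genes, Jun (2.20) and Klf6 (1.89), immediate early transcription factors, were higher on the Aldh1a1 side and the chaperone Hsph1 (-1.52) on the other. Among 7 compared FGF and EGF genes, Egfr (1.55) was higher on the Aldh1a1 side and Fgfr2 (-2.57), Fgfr1 (-1.37) and Erbb2 (-1.31) on the other. Erbb2 was at -0.91 among cells with 3000 to 5000 listed genes. The locus given for Fgfr2 in the table spans 9 other compared genes, Cpxm2 among them, so the values of both are uncertain. Without the strand of counting, the same holds for the named genes whose loci overlap another compared gene, such as Cdkn1c and Gm44732, Lef1 and Gm43352, Ccnd1 and Oraov1, and Jun and Junos.

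None of the G2 and M phase genes reached the level to be compared, and 1 of 7 compared S phase genes was called, Pcna (1.12). All 29 compared genes of cytosolic ribosomal proteins had relative differences below 0, with a median of -0.58, and 1 was called, Rps19 (-1.02), which had medians of 465 and 764 FPKM. Oxidative phosphorylation genes had a median of -0.09, with 3 of 27 higher on the Aldh1a1 side and 1 on the other. None of 5 compared p53 target genes was called.

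A principal component analysis of the 2000 most variable compared genes, without Aldh1a1 and Aldh1a3, gave a first component with 5.88% of the variance. On it 27 of 31 cells of the Aldh1a1 side and 5 of 32 of the Aldh1a3 side had scores above 0, and the Aldh1a1 cell was the higher in 94.1% of pairs. A gene could enter through detection in 30% of the cells of 1 side alone. The choice of genes thus depended in part on the split, and the separation is a description only. The scores also moved with the number of listed genes (Spearman's rho 0.65 over 68 cells), and the part of depth in the separation was not tested. Among cells with 3000 to 5000 listed genes all 30 named genes kept their direction and a size of 1 or more, which the naming rule required in part. The 5 cells between the sides had scores above 0 in 4 cases. These cells differed among themselves. Perp and Klk10 were detected in 5 of 5, and Spp1, Fxyd3 and H2-D1 in 4 of 5, all at 0 in the same cell. Rcan2 was detected in 3 of 5, Id3 in 2, Id1 in 1 and Igfbp2 in 0.

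**Figure D4:**
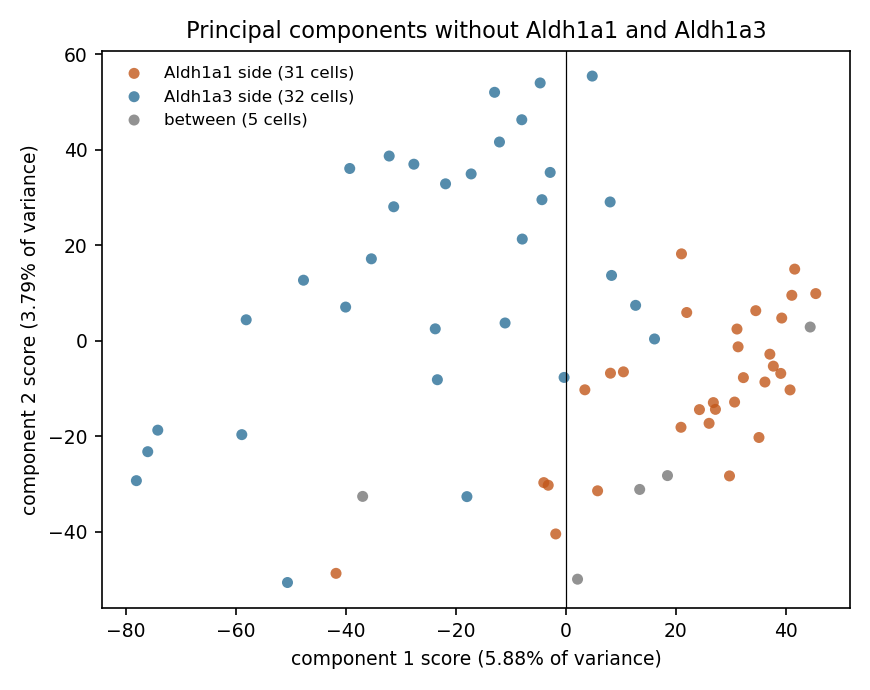
Scores on the first 2 principal components of the 68 kept cells, 1 point per cell, from 2000 genes without the 2 enzymes. Cells of the Aldh1a1 side lie mostly right of 0 (27 of 31) and cells of the Aldh1a3 side mostly left of it (27 of 32).

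The rule did not use the wild-type cells, in which the same split gave 8 cells on the Aldh1a1 side and 15 on the Aldh1a3 side of 27 kept. The genotypes cannot be told apart from sex or from the prefix of the titles, which 32 of the 33 wild-type cells do not share with the mutant cells: Xist was detected in none of these 23 cells and Y-linked genes in 7 of 8 and 15 of 15. Of 6868 compared genes, 18.6% were called higher on the Aldh1a1 side and 20.4% on the Aldh1a3 side, more than in the mutant, with fewer cells. All of the 15 highest genes of the mutant had a difference of the same sign in wild type, 13 of them past 1, and 14 of the 15 lowest did, 13 past -1. Agreement was lower over all called genes. Of the 705 called higher on the Aldh1a1 side, 71.3% had the same sign in wild type and 42.8% were past 1. Of the 599 called higher on the Aldh1a3 side, 72.6% had the same sign and 39.9% were past -1. Over all genes compared in the mutant 59.01% had the same sign. The difference between the genotypes was not tested.

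Klk10 (6.05 in wild type), Myl7 (5.14) and Spp1 (4.36) were far apart between the sides in both genotypes, as were Lypd2 (-6.68), Cpxm2 (-6.32) and Fam132a (-5.40). Tspan7 was at 4.10 in the mutant and 0.18 in wild type, Fxyd3 at 4.77 and 0.97, and Cldn8 at -3.73 and -0.23. Ccnd2, the exception in sign, was at -4.16 and 0.11. Of the other genes above, Id3 was at -3.64 and Id1 at -3.92 in wild type, H2-D1 at 3.53, Mt1 at 4.30 and Mt2 at 5.75. Sp8 was detected in 7 of 8 and 3 of 15 wild-type cells and Bmper in 0 of 8 and 9 of 15. For Ctsa the wild-type value was 0.22. Called genes above with the opposite sign in wild type included Fgfr1 (-1.37 in the mutant and 1.10 in wild type) and Ccnd1 (-1.78 and 0.91). Sox9, which was not called, was at -0.55 and 1.05.

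**Figure D5:**
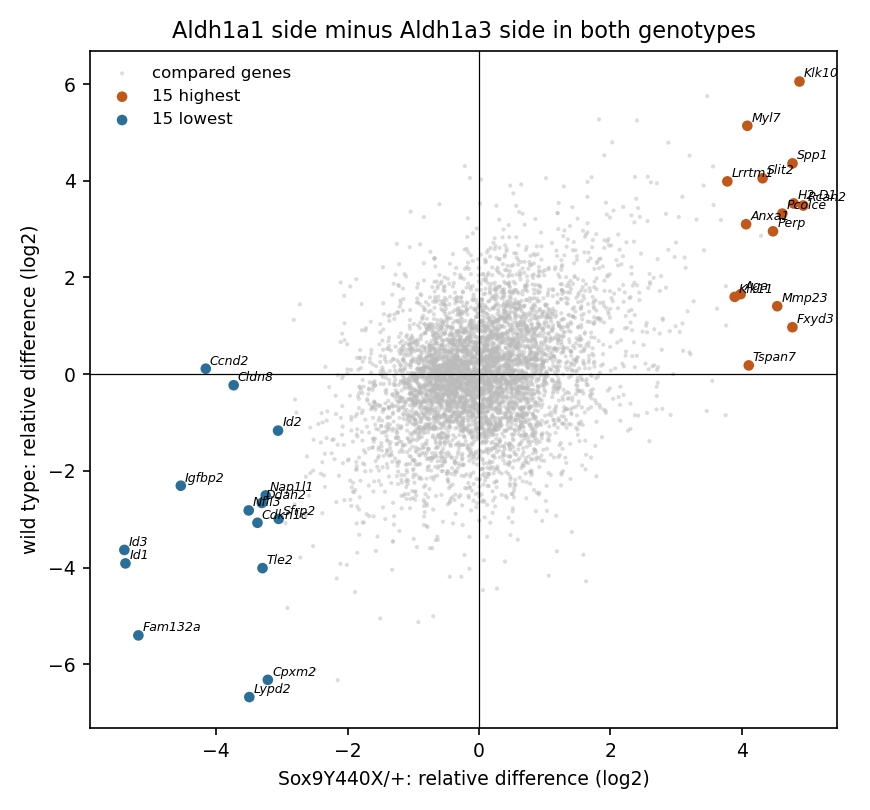
Relative difference (log2, Aldh1a1 side minus Aldh1a3 side) of each compared gene in Sox9Y440X/+ cells (horizontal) and wild-type cells (vertical), with the 15 highest and 15 lowest genes of the mutant in colour and named. All but Ccnd2 of these 30 lie in the quadrants where both genotypes have the same sign; Tspan7, Cldn8 and Fxyd3 have wild-type values of 0.18, -0.23 and 0.97.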

How the data were processed

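Single-cell RNA was measured in 126 cells, 1 column per cell of the deposited table. Its values are FPKM computed by the authors; the build was mm10 and the tools, given without roles, were Cufflinks, HTSeq, HISAT2 and SAMtools 0.1.18, per the submitters' processing notes. Starts in the table count from 0, so 1 was added. The 48555 rows hold 48490 gene IDs. Columns were matched to samples by their titles, and genotypes were taken from the genotype labels of the samples. From these values log2(FPKM + 1) was computed, with a pseudocount of 1, and means over cells were compared as described above (Python 3.11.15, numpy 2.4.6, pandas 2.3.3, scikit-learn 1.9.0). The arithmetic of the comparison was checked on values drawn gene by gene from the pooled cells, with known fold changes added. Such a draw keeps neither links between genes nor differences in depth between cells, so it does not bear on the calls. No count model was used, and no test, since each genotype is 1 sample. Doublets were not called.

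Genes named are the 15 highest and 15 lowest compared genes that keep their sign and 50% of their size when each cell is rescaled to 1000000 and when only cells of 3000 to 5000 listed genes are used, without predicted genes, pseudogenes and sex-linked markers. To these were added fixed genes and the called members of 30 gene lists, the 4 largest where over 4 were called; some of these are not reported here. Of the list symbols, 7 have no row. The members and lists were chosen with earlier results of these data known. Genes named outside this rule were chosen after their values were seen. They were the genes detected on a single side, Mt1, Mt2, Ctsd, Lamp1, Atp6v1a, Id4, Wnt2b, Wnt7b, Wnt9a, Ifitm3 and Irf1. Promoters are from RefSeq.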

Additional observations from a re-analysis of the deposited data

How the results depend on the processing

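Under 19 alternatives each of the 30 named genes kept its direction and a size of 1 or more (570 of 570 values). This was fixed in part beforehand, because the naming rule took the most extreme genes. It also used the rescaling and the window of listed genes, which are among the alternatives. The stricter cutoffs on Epcam and Foxi1 left the numbers of cells and compared genes unchanged. The first component kept the Aldh1a1 cell higher in 88.9% to 100% of pairs. The number of the 30 named genes with the same sign in wild type ran from 28 to 30. The counts of called genes did move. With a pseudocount of 0.1 they were 1235 on the Aldh1a1 side and 1231 on the Aldh1a3 side, and with 10 they were 222 and 73. With genes detected in 50% of cells, 379 were higher on the Aldh1a3 side. Among title letters A to D the Aldh1a3 side had 1046, among letters E to H the sides had 1090 and 998, among numbers 01 to 06 the Aldh1a3 side had 941, and among numbers 07 to 12 the sides had 1145 and 1128, each with fewer cells. List medians moved too: over the alternatives the class I median ran from 0.27 (no filter on low values) to 3.07 (pseudocount 0.1), the WNT target median from -3.28 to -0.32 in the same settings, the BMP median from -1.79 (genes in 50% of cells) to -0.07 (letters E to H), the otic patterning median from -1.80 to -0.44 and the lysosomal median from 0.93 to 2.25. In all, 9 list medians and 45 values of single genes were counted as moved, by 1 SD or more (over the list members and over cells). Of the 45, 19 each were for Bmp4 and Aldh1a2, which were listed at 0 on both sides. Their SD was 0, so each of their values was counted as moved, changed or not. Some values reversed. Oc90 was at -1.84 with log2 of the mean FPKM and at -0.16 for letters E to H, the secreted-protein median at -0.11 and -0.65 in the same settings, and Ndrg1, of the glycolysis and hypoxia list, at -0.37 for letters E to H. The cause was not tested. Leaving out cells whose FPKM sum exceeds 1000000 was an alternative chosen once the data had been seen. No paired analysis was possible because no test was made and no replicate numbers are given. Depth per cell is unknown, so a gene listed at 0 may have been missed.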
